A study of Homo sapiens with 14 samples.

Results

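The genes described here encode the SMAD proteins and their regulators. They are the 8 SMAD genes (SMAD1, SMAD2, SMAD3, SMAD4, SMAD5, SMAD6, SMAD7 and SMAD9) and the corepressor genes SKI and SKIL, 10 of 20162 protein-coding genes of the GENCODE annotation of hg19. A gene was a member by name alone, and its window was the gene body with 20 kb added on each side. Every peak of the 14 lists that overlapped a window was counted, by mark, matrix and replicate. Chromatin of wild-type LX-2, an immortalised line of human hepatic stellate cells, kept for 2 days on soft or on stiff matrix, was profiled by CUT&Tag, in which an antibody guides a transposase to its target and the released fragments are sequenced. Libraries were made against p-JUN (phosphorylated JUN, a subunit of the AP-1 transcription factor), H3K4me3 (a mark of active promoters) and H3K27me3 (a mark of Polycomb repression), with 2 libraries per matrix for each, and against H3K27ac (which marks enhancers and promoters in use), with 1 merged list per matrix and so no replicate error. The titles name the soft libraries 2K and the stiff histone libraries 40K, but the stiff p-JUN libraries carry TCP, the study's abbreviation for culture plastic, so every p-JUN comparison is between libraries labelled soft and labelled stiff and cannot be told apart from a comparison with plastic. All libraries came from 1 cell line, and while the study's methods call its sequencing replicates biological, nothing in the labels says whether they were separate cultures.

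SMAD proteins carry signals of the transforming growth factor β (TGF-β) family from the cell surface to the nucleus. Receptor-activated SMADs are phosphorylated by the receptors, SMAD2 and SMAD3 by those for TGF-β and activin and SMAD1, SMAD5 and SMAD9 by those for bone morphogenetic proteins (BMPs), and then enter the nucleus with the common partner SMAD4. SMAD6 and SMAD7 inhibit the receptors and are induced by the pathway itself, while SKI and SKIL bind SMAD complexes and repress their targets. In hepatic stellate cells TGF-β signalling through SMAD3 is a main driver of collagen production, and AP-1 is known to bind DNA together with SMAD3 and SMAD4.

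Peaks of the libraries of a mark that shared at least 1 bp were joined into a region. The 10 windows held 60 of 61411 p-JUN regions, 22 of 20393 H3K4me3 regions, 18 of 20403 H3K27ac regions and 3 of 25436 H3K27me3 regions. Positions are given in kb from the main start site of the gene, negative when upstream, and coordinates are those of hg19. The value of a peak is its deposited fold, the signal at the summit over the local background of the same library. A library without a called peak has no value, which is not the same as no signal. The p-JUN lists held 48163 to 54168 peaks, the H3K4me3 lists 18096 to 18857, the H3K27me3 lists 6974 to 19843 (the longest being soft replicate 1) and the H3K27ac lists 18238 on soft and 13322 on stiff. The median summit held 60 to 64 fragments in the p-JUN libraries, 120 and 141 on soft against 151 and 207 on stiff in the H3K4me3 libraries, and 27 and 26 in the H3K27ac lists. The cell type was checked through H3K4me3 within 1 kb of a start site in all 4 libraries, which 61.7% of all protein-coding genes had. Of 12 stellate and mesenchymal marker genes 7 had it, a share not above that of all genes, among them ACTA2, COL1A1, PDGFRB and VIM. COL1A2, DES, LRAT and GFAP had it in 0 libraries and COL3A1 in 1. None of 6 hepatocyte and 4 endothelial markers had it, and 1 of 5 immune markers (CD14) and 1 of 4 epithelial markers (EPCAM) did.

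The promoters of all 10 genes carried H3K4me3 on both matrices. In all 4 libraries each gene had an H3K4me3 peak within 1 kb of a start site, as did 61.7% of all protein-coding genes. An H3K27me3 peak lay within 1 kb of a start site in any library at 0 of the 10 genes, against 10.1% of all genes. p-JUN lay within 1 kb of a start site in all 4 libraries at 6 genes (SMAD2, SMAD3, SMAD4, SMAD5, SMAD6 and SKIL), against 37.5% of all genes. SMAD9 had a p-JUN peak there in soft replicate 1 and stiff replicate 2 alone, and SMAD1, SMAD7 and SKI had none in any library. H3K27ac lay within 1 kb of a start site in both lists at SMAD3, SMAD4 and SMAD5, 3 of 10 genes against 20.9% of all genes, and at SMAD3 it was at an internal start site and not at the main one.

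**Figure D1:**
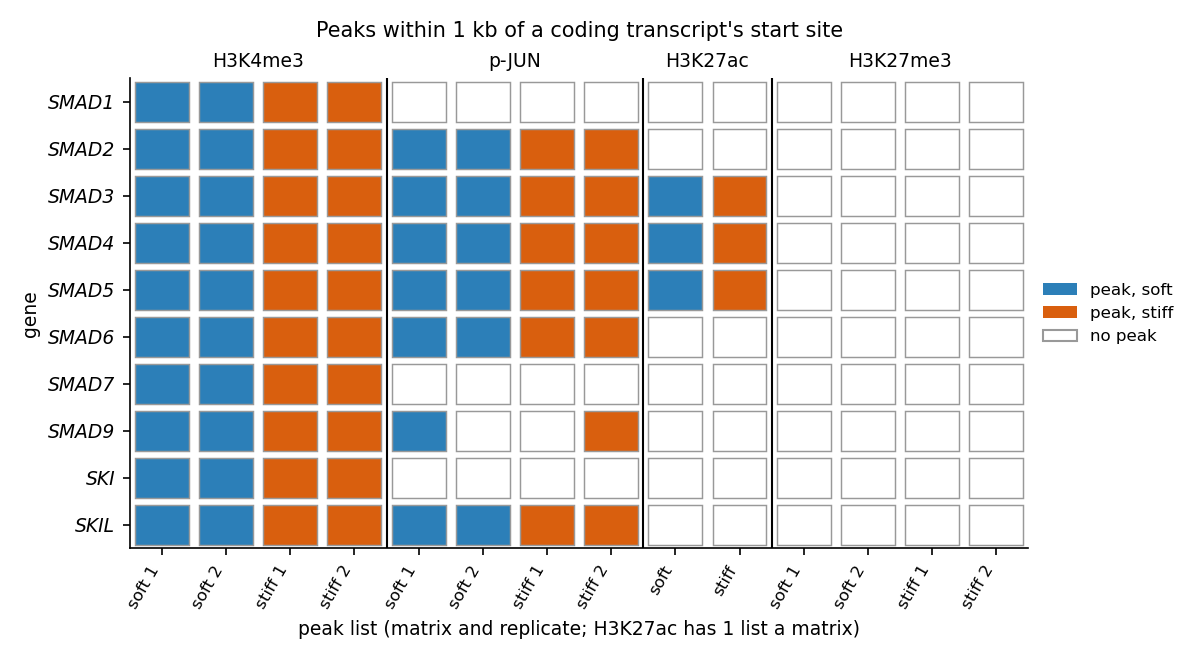
Peaks within 1 kb of a start site of a coding transcript, for the 10 genes (rows) in the 14 lists (columns). A filled square is a called peak (blue, soft; orange, stiff) and an open square is none. H3K4me3 fills all 4 columns in all 10 rows and H3K27me3 none, p-JUN fills all 4 columns in 6 rows, and H3K27ac both columns in 3.

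The number of p-JUN peaks ranged from 0 at SMAD1 to 20 at SMAD3, while the totals over the 10 genes overlapped between the matrices. A p-JUN region called in all 4 libraries lay in the window of 9 of the 10 genes, against 73.4% of all genes, SMAD1 being the exception. Summed over the windows, p-JUN peaks numbered 51 and 48 for soft against 47 and 53 for stiff. The groups overlapped, at 49.5 ± 2.12 on soft and 50 ± 4.24 on stiff (SD, n = 2 libraries; two-sided exact permutation test, p = 1.00, the smallest p that 2 against 2 libraries allow being 0.333). Those of H3K4me3 numbered 19 and 22 for soft against 19 and 21 for stiff. These groups overlapped too, at 20.5 ± 2.12 and 20 ± 1.41 (SD, n = 2 libraries; exact permutation test, p = 1.00). The merged H3K27ac lists held 19 (soft) and 15 (stiff), a log2 ratio of -0.34 with a 95% exact binomial interval of -1.42 to 0.71 that covers counting error only. With the soft list shortened to the length of the stiff list the numbers were 16 and 15, a log2 ratio of -0.09. A region called in both H3K27ac lists lay in 6 of the 10 windows, against 45.7% of all genes.

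**Figure D2:**
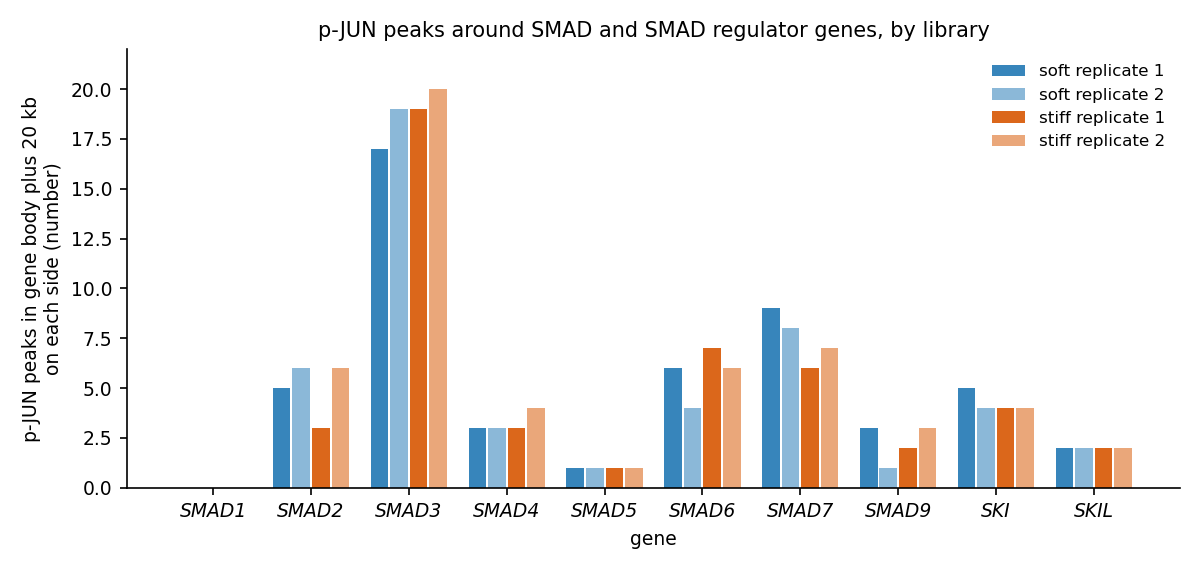
Number of p-JUN peaks in the window of each gene (gene body plus 20 kb on each side), with 1 bar per library (blue, soft; orange, stiff; paler bars, replicate 2). SMAD3 holds 17 to 20 peaks and SMAD1 none, and SMAD7 is the only gene whose 2 soft bars (9 and 8) both stand above its 2 stiff bars (6 and 7), the bar of 8 counting a region that was split into several peaks.

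Of the receptor-activated SMADs for TGF-β, SMAD3 (chr15:67356101-67487511, plus strand) had the richest window. It held 17 and 19 p-JUN peaks on soft and 19 and 20 on stiff, so the groups touched at 19. They formed 20 regions, more than in the windows of 99.2% of all genes, where the median was 2. The window spans 171 kb, and per 100 kb it had 11.7 regions, denser than 97.9% of genes (median 3.05). Of the 20 regions 16 were called in all 4 libraries, and 16 of the 20 summits lay in introns. The strongest, which here and below means the highest mean fold among the regions called in all 4 libraries, lay at 10.8 kb in an intron (chr15:67368218-67369250), with folds of 13.7 and 13.3 on soft and 11.7 and 14 on stiff. Those groups overlapped, and the centred log2 difference was -0.12 ± 0.10 (SE).

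With regions of either list counted, SMAD3 also had 8 H3K27ac regions, more than 99.0% of genes, a rank not scaled to window length. Of the 8 regions 6 were in both lists and 2 in the soft list alone. All 8 were overlapped by a p-JUN peak in each of the 4 libraries. The main start site had no H3K27ac peak in either list, although H3K4me3 there had folds of 5.87 and 5.68 on soft and 5.92 and 5.88 on stiff. This H3K4me3 region (chr15:67358507-67361166) began downstream of the start, and the p-JUN region at the start ended before it. Another p-JUN region lay inside this H3K4me3 region, at 1.85 kb (chr15:67359671-67360065). Its folds were 3.38 in soft replicate 2 and 3.31 and 3.65 on stiff, with no call in soft replicate 1. p-JUN at the start had folds of 5.66 and 4.84 on soft and 4.41 and 6.12 on stiff, overlapping between the groups.

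An internal promoter of SMAD3 carried H3K4me3, H3K27ac and p-JUN at once. At 60.4 kb, at the start site of shorter coding transcripts (chr15:67417793-67418787), H3K4me3 had folds of 6.01 and 6.45 on soft and 7.23 and 7.98 on stiff. Both stiff libraries were above both soft libraries. The centred log2 difference was 0.21 ± 0.08 (SE; limma, unadjusted p = 0.0341, Benjamini-Hochberg adjusted p = 0.463), so it did not pass. Computed from fragments at the summit it was 0.07. H3K27ac at 60.2 kb had a fold of 3.60 on soft and 3.72 on stiff, and p-JUN there had folds of 5.34 and 5.24 on soft and 5.19 and 5.45 on stiff.

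**Figure D3:**
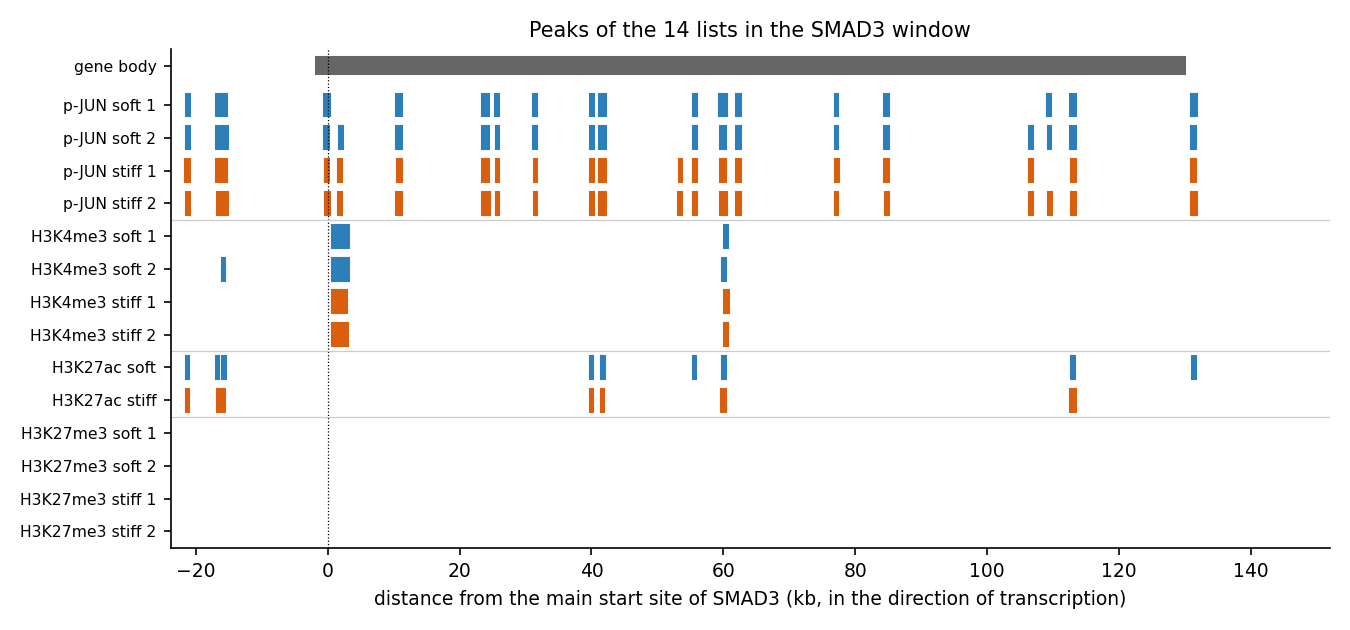
Peaks of the 14 lists in the SMAD3 window, by distance from the main start site (kb). Each row is a list, each block a peak (blue, soft; orange, stiff; short peaks are drawn at a minimum width), and the grey bar is the gene body. The same p-JUN columns recur in the 4 libraries, H3K27ac blocks sit under p-JUN columns, and single-matrix calls stand at 53.4 kb in p-JUN and at 55.6 and 132 kb in H3K27ac.

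The p-JUN sites of SMAD3 are shown with their sequence because most of the member regions with the letters bound by AP-1 lay in this gene. AP-1 letters (TGACTCA or TGAGTCA, the same site read on either strand) had their centre within 50 bp of the summit in 13 of the 60 p-JUN regions of the members, of which 8 were in SMAD3. This share of 21.7% was below the 30.6% of all p-JUN regions. The sequences below give 41 bases of the hg19 plus strand around the letters, which are in capitals, first for the strongest region, then for the regions at 31.5, 53.4 and 55.6 kb whose values follow.

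SMAD3 at 10.8 kb, chr15:67368699-67368739: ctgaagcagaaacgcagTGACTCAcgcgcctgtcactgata
SMAD3 at 31.5 kb, chr15:67389396-67389436: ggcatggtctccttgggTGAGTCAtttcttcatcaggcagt
SMAD3 at 53.4 kb, chr15:67411369-67411409: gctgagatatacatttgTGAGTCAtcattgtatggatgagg
SMAD3 at 55.6 kb, chr15:67413522-67413562: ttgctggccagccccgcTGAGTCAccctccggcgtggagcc

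The region at 53.4 kb (chr15:67411144-67411691, in an intron) was the only p-JUN region of the 10 windows that was stiff-only, which means a peak in each stiff library and none in a soft one (soft-only being the reverse). Its folds were 3.78 and 3.37 on stiff, among the lower values of the gene. Such stiff-only calls made up 1 of 60 member regions, and 2.75% of all p-JUN regions. The next p-JUN region with AP-1 letters, further into the intron, differed the other way. The p-JUN region at 55.6 kb (chr15:67413435-67413826) had folds of 4.56 and 4.43 on soft and 3.37 and 3.73 on stiff. Both stiff libraries were below both soft libraries, with a centred log2 difference of -0.39 ± 0.09 (SE; limma, unadjusted p = 0.00442, adjusted p = 0.399). It was the lowest difference of the 39 member regions tested and did not pass the adjusted threshold. The H3K27ac peak over it (chr15:67413405-67413768) was in the soft list alone, with a fold of 3.54 from 52 fragments.

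At 31.5 kb (chr15:67389151-67389691) p-JUN was higher in the stiff libraries, with folds of 4.70 and 4.31 on soft against 5.34 and 5.95 on stiff. The groups did not overlap and the centred log2 difference was 0.28 ± 0.10 (SE; limma, unadjusted p = 0.0237, adjusted p = 0.468), which did not pass. A further H3K27ac region of SMAD3, at 132 kb downstream of the gene (chr15:67489203-67489517), was called on soft alone with a fold of 5.59 from only 16 fragments. p-JUN in the overlapping region had folds of 7.78 and 7.08 on soft and 7.71 and 7.52 on stiff, which overlapped (centred log2 difference -0.01 ± 0.11, SE). Fragments counted there were 83 and 66 for the soft libraries against 60 and 56 for the stiff ones. On that scale the difference was -0.41 (limma, unadjusted p = 0.0246, adjusted p = 0.159).

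SMAD2 (chr18:45335328-45457517, minus strand), the other TGF-β receptor-activated SMAD, had 5 and 6 p-JUN peaks on soft and 3 and 6 on stiff, with overlap. It had no H3K27ac region. Its promoter H3K4me3 had folds of 10.2 and 9.42 on soft and 8.65 and 9.78 on stiff, and p-JUN at the start 5.51 and 6.49 on soft and 6.70 and 6.90 on stiff. Both stiff p-JUN libraries were the higher, by a centred log2 difference of 0.14 ± 0.12 (SE) that did not pass (limma, adjusted p = 0.770). It was 0.02 without soft replicate 1 and 0.26 without soft replicate 2, and turned to -0.13 from fragments at the summit.

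The p-JUN region with the highest mean fold of all 10 genes (15.4) was upstream of SMAD2, at -15.0 kb between genes (chr18:45471563-45472349). Its folds were 16.9 and 16.8 on soft against 13.4 and 14.7 on stiff. The soft libraries were both higher, with a centred log2 difference of -0.31 ± 0.09 (SE; limma, unadjusted p = 0.0132, adjusted p = 0.433), short of the threshold. From fragments at the summit the difference was -0.69 (adjusted p = 0.0629). It held an AP-1 site, shown because this is the strongest region, with the letters in capitals.

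SMAD2 at -15.0 kb, chr18:45472062-45472102: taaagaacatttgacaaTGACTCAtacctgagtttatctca

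An intron of SMAD2 held a soft-only p-JUN region at 46.5 kb (chr18:45410430-45410766), with folds of 5.61 and 5.19 on soft and no peak on stiff. A neighbouring region at 48.5 kb had folds of 6.31 and 5.80 on soft and 7.86 in stiff replicate 2. Neither had AP-1 letters within 50 bp of its summit. Soft-only calls made up 2 of the 60 member regions and 1.74% of all p-JUN regions. A p-JUN region of 1 matrix lay in 3 of 10 windows (SMAD2, SMAD3 and SMAD7), against 12.0% of all genes. A window with more p-JUN regions has more that could be of 1 matrix, and these held 7, 20 and 9, against a median of 2. Counted by region, stiff-only calls were 1.67% of the member regions, against 2.75% of all, and soft-only calls 3.33%, against 1.74%.

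The common partner SMAD4 (chr18:48554898-48611415, plus strand) had 3 and 3 p-JUN peaks on soft and 3 and 4 on stiff. Its promoter carried H3K4me3, H3K27ac and p-JUN together. H3K4me3 at -0.130 kb had folds of 9.54 and 10.2 on soft and 9.56 and 10.2 on stiff, and H3K27ac 9.10 on soft and 6.47 on stiff, from 28 and 16 fragments. p-JUN there had folds of 8.89 and 8.28 on soft and 6.97 and 8.36 on stiff, which overlapped. Its strongest p-JUN region lay in an intron at 40.6 kb (chr18:48596365-48597432), at 11.2 and 9.45 on soft and 9.83 and 9.78 on stiff, again with overlap. At -20.9 kb, inside an overlapping readthrough gene, p-JUN had a fold of 10.3 in soft replicate 1 and of 11.8 and 15.9 on stiff, with no call in soft replicate 2, so it was not ranked.

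Of the BMP receptor-activated SMADs, SMAD1 had 0 p-JUN regions, SMAD5 1 and SMAD9 3, and H3K27ac was called at SMAD5 alone. The number at SMAD9 was above that of 50.3% of genes, but its 2.58 regions per 100 kb were denser than in only 45.1%. SMAD1 (chr4:146402346-146480328, plus strand) had no p-JUN and no H3K27ac peak in any list. Its only region was the H3K4me3 promoter at 0.962 kb, with folds of 6.20 and 7.98 on soft and 6.63 and 6.02 on stiff. AP-1 letters stood at -589 bp from its main start site, without a p-JUN call. Within 2 kb of the main start site 3 of the 10 genes had them, the others being SMAD2 (-1727 bp) and SMAD4 (-1559 bp), against 40.3% of promoters.

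SMAD5 (chr5:135468534-135524435, plus strand) had 1 p-JUN peak in each library, over the promoter at 0.299 kb, at 8.15 and 7.94 on soft and 7.84 and 10.3 on stiff. H3K4me3 there had folds of 11.2 and 13.3 on soft and 12.0 and 12.6 on stiff, and H3K27ac 8.82 and 7.99. The p-JUN and H3K4me3 groups overlapped. SMAD9 (chr13:37418968-37495024, minus strand) had 3 and 1 p-JUN peaks on soft and 2 and 3 on stiff. Its strongest region, and the only one called in all 4 libraries, was in an intron at 57.9 kb (chr13:37436343-37436639), with folds of 11.0 and 8.79 on soft and 12.0 and 13.0 on stiff. Both stiff libraries were higher, by a centred log2 difference of 0.30 ± 0.13 (SE; limma, unadjusted p = 0.0489, adjusted p = 0.525), which did not pass. It ranged from 0.14 without soft replicate 2 to 0.46 without soft replicate 1, and was 0.69 from fragments at the summit. Downstream of SMAD9, at 85.7 kb (chr13:37408376-37408744), a region with AP-1 letters had a fold of 11.9 in soft replicate 1 and of 9.91 and 12.9 on stiff, with no call in soft replicate 2. The promoter H3K4me3 of SMAD9 had folds of 11.1 and 11.0 on soft against 12.5 and 10.3 on stiff.

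The inhibitory SMADs had p-JUN regions spread around them, and their sequences near the start site are shown because both hold the palindrome GTCTAGAC, the letters bound by SMAD3 and SMAD4. Among 19540 promoters, 2.21% have these letters within 2 kb of the main start site, and among the members only SMAD6 and SMAD7 did. The palindrome of SMAD6 lay at -8 bp, inside the joined p-JUN region of its promoter, in the peaks of soft replicate 1 and stiff replicate 2 and outside those of the other two libraries. That of SMAD7 lay at -1257 bp, 67 bases outside a p-JUN region called in all 4 libraries (chr18:46478662-46479413). The letters were within 50 bp of a p-JUN summit in 0 of 60 member regions and in 0.0977% of all regions. The 41 bases are those of the hg19 plus strand, with the palindrome in capitals.

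SMAD6, chr15:66994546-66994586: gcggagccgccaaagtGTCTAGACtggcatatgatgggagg
SMAD7, chr18:46478572-46478612: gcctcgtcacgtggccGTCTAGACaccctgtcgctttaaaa

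SMAD6 (chr15:66994574-67075187, plus strand), which acts mainly on BMP receptors, had 6 and 4 p-JUN peaks on soft and 7 and 6 on stiff, with overlap. They formed 9 regions, more than in 93.7% of genes, and 7.46 per 100 kb, denser than in 88.5%. Of the 9 regions 4 were called in all 4 libraries, against 65.8% of all p-JUN regions, and the other 5 in 1 to 3 libraries. p-JUN over the promoter, in the region that holds the palindrome, had folds of 5.84 and 5.56 on soft and 4.82 and 5.10 on stiff. Both stiff libraries were lower, by a centred log2 difference of -0.24 ± 0.09 (SE; limma, unadjusted p = 0.0361, adjusted p = 0.497), which did not pass, and of -0.44 from fragments at the summit. H3K4me3 over the same promoter had folds of 4.4 and 4.96 on soft and 5.0 and 4.96 on stiff. A separate H3K4me3 region at 2.10 kb had folds of 3.13 and 3.89 on soft and 2.94 and 3.05 on stiff, with both stiff libraries lower (centred log2 difference -0.29 ± 0.10 SE; limma, unadjusted p = 0.0279, adjusted p = 0.448). That difference was -0.16 without soft replicate 2 and -0.43 without soft replicate 1.

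The strongest p-JUN region of SMAD6 was intronic, at 28.5 kb (chr15:67022698-67023339), with folds of 12.2 and 13.0 on soft and 12.6 and 14.4 on stiff, which overlapped. It is shown by 101 bases around its summit because it had neither AP-1 letters nor the related TGACGTCA within 50 bp.

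SMAD6 at 28.5 kb, chr15:67022996-67023096: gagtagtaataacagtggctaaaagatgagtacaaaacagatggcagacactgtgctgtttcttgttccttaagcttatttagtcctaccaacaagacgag

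Near the end of SMAD6, at 78.0 kb in an intron, H3K27ac was called on soft alone (chr15:67072121-67072875), with a fold of 5.98 from 33 fragments. The p-JUN groups in this region overlapped, at 5.86 and 5.18 on soft and 6.38 and 4.94 on stiff. Downstream of the gene, at 101 kb (chr15:67094495-67096102), p-JUN had folds of 8.05 and 7.72 on soft and 8.22 and 9.01 on stiff, and H3K27ac 3.60 and 3.51. There both stiff p-JUN libraries were higher, by a centred log2 difference of 0.08 ± 0.09 (SE), which is less than its error.

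SMAD7 (chr18:46446223-46477335, minus strand), the inhibitor of TGF-β receptor signalling, had 9 and 8 p-JUN peaks on soft and 6 and 7 on stiff. Both soft numbers were above both stiff numbers, but soft replicate 2 had the region at 28.0 kb as 2 peaks. Counted as regions there were 9 and 7 on soft and 6 and 7 on stiff, so the groups touched at 7. Of the 9 regions 6 were called in all 4 libraries, 1 was soft-only and 2 had other patterns. The mean difference of -2.0 in peaks was -0.5 in the gene body alone. Its window of 71.1 kb had 12.7 p-JUN regions per 100 kb, denser than that of 98.8% of genes. None lay within 1 kb of the start. The nearest, at -1.85 kb next to the palindrome, had folds of 3.85 and 4.06 on soft and 3.56 and 4.30 on stiff, and H3K4me3 there 2.30 and 2.33 on soft against 2.58 and 2.06 on stiff. The groups overlapped in both.

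The strongest p-JUN region of SMAD7, at 8.17 kb in an exon of a transcript (chr18:46468779-46469763), had folds of 7.17 and 7.96 on soft and 7.91 and 8.90 on stiff, with overlap. H3K4me3 was widest downstream of the start, at 1.54 kb, with folds of 4.16 and 4.70 on soft and 4.34 and 4.75 on stiff. Nearest the start, at -0.213 kb, its folds were lower, at 1.95 and 2.08 on soft and 2.03 and 2.18 on stiff, which overlapped. H3K27ac lay away from the promoter, in an intron at 20.7 kb with a fold of 5.12 on soft and 4.65 on stiff, and downstream of the gene at 48.7 kb with 9.47 and 7.12. Both were below on stiff, with no replicate to set the difference against. Upstream of SMAD7 a soft-only p-JUN region lay at -10.8 kb (chr18:46487862-46488353), with folds of 2.94 and 3.36 on soft and no call on stiff. Its AP-1 letters are shown in capitals, since it is the only soft-only member region that held them.

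SMAD7 at -10.8 kb, chr18:46488110-46488150: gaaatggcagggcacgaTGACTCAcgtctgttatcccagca

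The p-JUN region beside it, at -9.53 kb (chr18:46486382-46487350), was called in all 4 libraries, at 5.02 and 5.34 on soft and 5.58 and 5.87 on stiff. Here both stiff libraries were the higher, but by a centred log2 difference of only 0.10 ± 0.10 (SE), which turned to -0.04 from fragments at the summit.

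**Figure D4:**
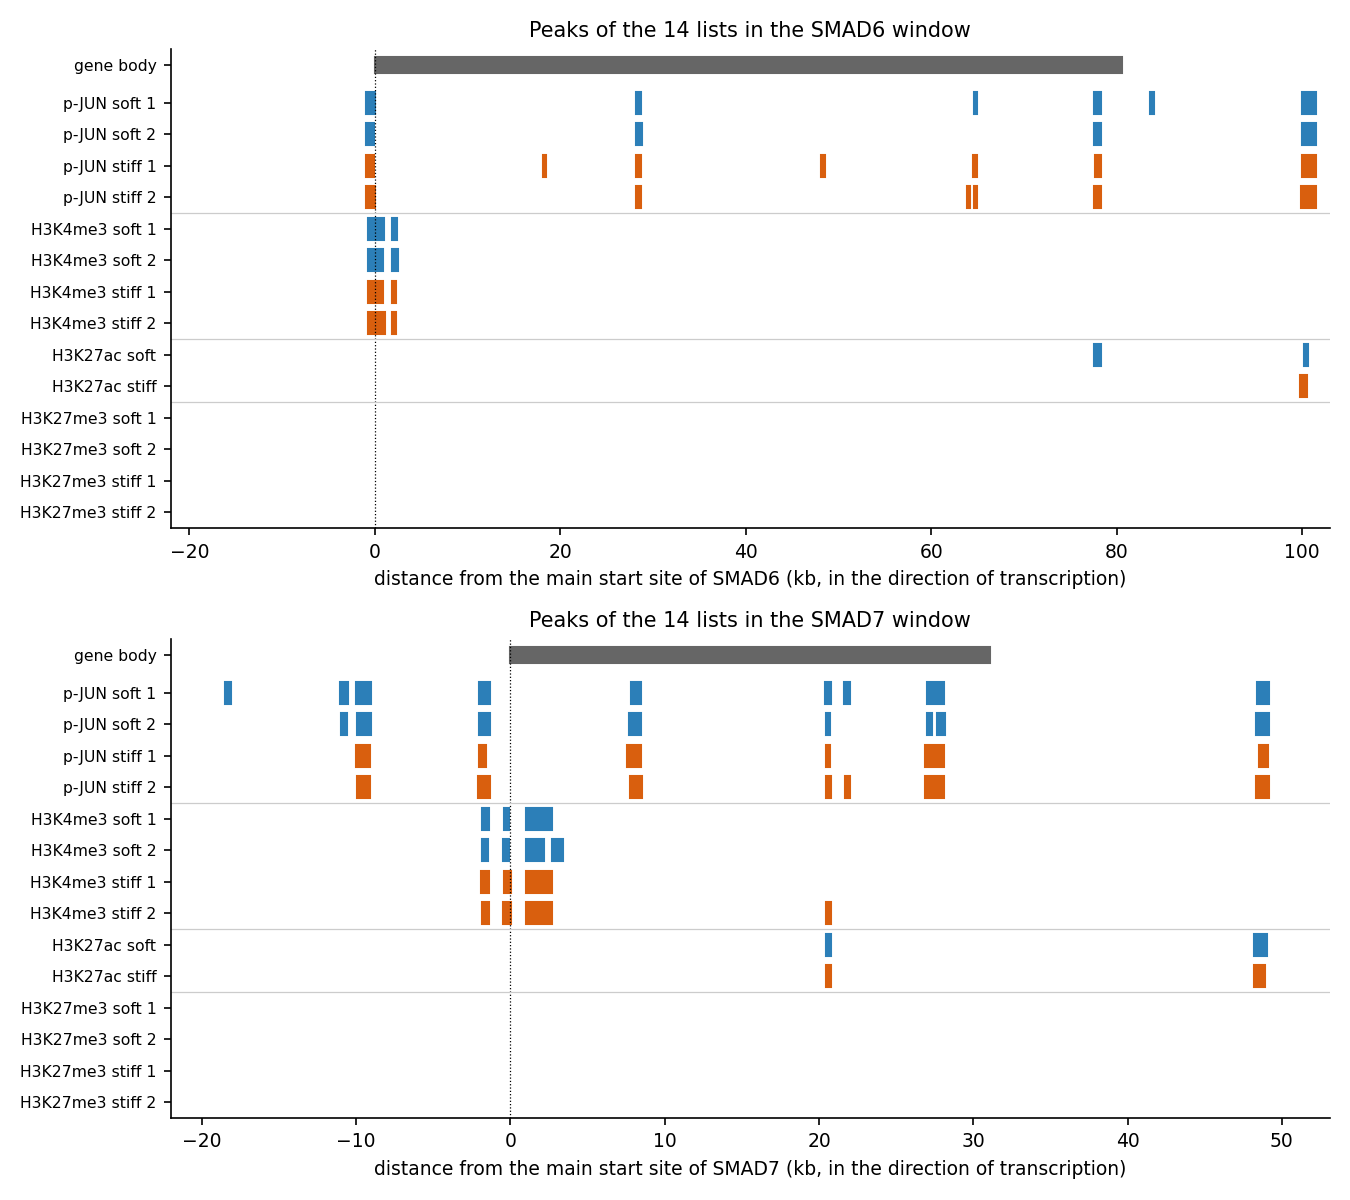
Peaks of the 14 lists in the SMAD6 window (top) and the SMAD7 window (bottom), by distance from the main start site (kb). Rows are lists, blocks are peaks (blue, soft; orange, stiff; short peaks are drawn at a minimum width), and grey bars are the gene bodies. The H3K27ac block of SMAD6 at 78.0 kb stands in the soft list alone, and the p-JUN blocks of SMAD7 at -10.8 kb in the soft libraries alone.

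SKI (chr1:2158827-2241652, plus strand) encodes a corepressor of SMAD complexes. It had 5 and 4 p-JUN peaks on soft and 4 and 4 on stiff. With regions of either list counted, it had 4 H3K27ac regions, more than 91.8% of genes. That rank was not scaled to window length, and all 4 regions were called in both lists. All 4 were overlapped by p-JUN in each library. The promoter had H3K4me3 at 4.0 and 4.34 on soft and 4.48 and 5.02 on stiff, both stiff libraries being higher (centred log2 difference 0.11 ± 0.08 SE, limma adjusted p = 0.681), which was 0.05 without stiff replicate 2. No H3K27ac overlapped it, and p-JUN did so in soft replicate 1 alone, in an intron at 3.58 kb with a fold of 5.46.

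An intronic element of SKI at 18.1 kb (chr1:2177663-2178076) carried p-JUN, H3K4me3 and H3K27ac. Its p-JUN folds were 7.46 and 5.75 on soft and 7.73 and 11.5 on stiff. Both stiff libraries were above both soft libraries, and the centred log2 difference of 0.48 ± 0.18 (SE) was the highest of the 39 member regions (limma, unadjusted p = 0.0340, adjusted p = 0.493). It did not pass, and ranged from 0.26 without stiff replicate 2 to 0.70 without stiff replicate 1. H3K4me3 there also had both stiff libraries higher, at 9.04 and 10.8 on soft and 11.4 and 12.9 on stiff, with a centred log2 difference of 0.22 ± 0.10 (SE; limma, adjusted p = 0.529), which was 0.12 without soft replicate 1 and 0.32 without soft replicate 2. H3K27ac was the reverse, at 10.2 on soft and 7.32 on stiff, from 56 and 36 fragments in single lists.

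At -15.7 kb (chr1:2143777-2144665), within the neighbouring gene FAAP20, p-JUN had folds of 6.67 and 7.5 on soft against 5.96 and 5.60 on stiff, the stiff libraries being lower by a centred log2 difference of -0.34 ± 0.12 (SE; limma, unadjusted p = 0.0275, adjusted p = 0.477). The strongest p-JUN region of SKI, at 27.7 kb in an intron (chr1:2186924-2187787), had folds of 12.9 and 12.8 on soft against 12.6 and 14.1 on stiff. The groups overlapped. Its 101 bases around the summit are shown because no AP-1 or TGACGTCA letters were found within 50 bp, as in SMAD6.

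SKI at 27.7 kb, chr1:2187398-2187498: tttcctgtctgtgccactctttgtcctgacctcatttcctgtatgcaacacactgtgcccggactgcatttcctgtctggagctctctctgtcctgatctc

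SKIL (chr3:170075130-170114623, plus strand) encodes SnoN, the other corepressor, whose degradation TGF-β triggers and whose transcription it then raises. Its window had 2 p-JUN peaks in each of the 4 libraries. The promoter region, at -0.0360 kb (chr3:170074714-170076344), was the strongest, with folds of 10.4 and 9.08 on soft and 9.41 and 9.77 on stiff, which overlapped (centred log2 difference -0.06 ± 0.11, SE). The fragments at its summit did not overlap, at 142 and 109 on soft and 80 and 99 on stiff, a difference of -0.54 (limma, unadjusted p = 0.00309, adjusted p = 0.0805). It was the only member region with TGACGTCA, the cAMP response element (CRE) that JUN binds as a dimer with ATF proteins, within 50 bp of its summit. These letters were there in 0.718% of all p-JUN regions, and within 2 kb of the main start site in 5.26% of promoters. They are in capitals in the 41 bases of the hg19 plus strand below.

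SKIL, chr3:170075433-170075473: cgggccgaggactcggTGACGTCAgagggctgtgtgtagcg

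H3K4me3 at the SKIL promoter had folds of 8.02 and 8.63 on soft and 9.52 and 9.59 on stiff. Both stiff libraries were higher in these folds. The median fold over all H3K4me3 regions tested was itself higher on stiff, at 3.18 and 3.22 against 3.10 and 3.15 on the log2 scale. With these medians removed by centring, the log2 difference was 0.12 ± 0.07 (SE), which did not pass (limma, adjusted p = 0.611). It was 0.22 from fragments at the summit. No H3K27ac was called in the SKIL window.

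The repressive mark H3K27me3 was called in 3 of the 10 windows, close to the 34.6% of all genes, and each time in soft replicate 1 alone, the longest of the 4 lists. The regions were 357 bp at -3.53 kb of SMAD2 with a fold of 3.25, 405 bp at -15.2 kb of SMAD5 with a fold of 2.44 and 391 bp inside MORN1 downstream of SKI with a fold of 2.71. Together they covered 1153 bases in soft replicate 1, against 0 in each of the other 3 libraries (exact permutation test, p = 1.00). Of all H3K27me3 regions, 41.7% were called in soft replicate 1 alone.

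Most p-JUN regions of the members, and most of their H3K4me3 regions, had a peak in every library. For p-JUN, 39 of 60 regions (65.0%) were called in all 4 libraries, against 65.8% of all regions. For H3K4me3 it was 19 of 22 (86.4%), against 78.9%, and 0 were stiff-only or soft-only, against 1.77% and 1.25% of all regions. The other 3 H3K4me3 regions were called in 1 library each. Of the 18 H3K27ac regions 15 were in both lists (83.3%, against 54.1% of all H3K27ac regions), 3 were only in that of soft (16.7%, against 35.0%) and 0 only in that of stiff, against 10.9%. When the soft list was shortened to the 13322 peaks of the stiff list, the peaks at 55.6 kb of SMAD3 and 78.0 kb of SMAD6 stayed in it and that at 132 kb of SMAD3 did not.

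The folds of the regions called in all 4 libraries were compared after each library was centred on its median log2 fold. The 39 p-JUN regions had a median log2 difference of -0.01 and a range of -0.39 to 0.48, and all 40433 regions a median of -0.01. For the 19 H3K4me3 regions the median was -0.03 and the range -0.29 to 0.22. No region of either mark had a limma adjusted p under 0.05, either among the members or among all regions tested (0% of 40433 and 0% of 16098). At an unadjusted p under 0.05 there were 7 of 39 member p-JUN regions (17.9%, against 9.48% of all) and 2 of 19 member H3K4me3 regions (10.5%, against 10.2%). Computed from fragments at the summit, limma called 0 p-JUN regions and, of all H3K4me3 regions, 4 higher and 6 lower on stiff, none of them a member. On that scale 14 of the 39 p-JUN regions had an unadjusted p under 0.05, against 9346 of all 40433. The sign of the difference turned between fold and fragments at 8 of the 39 p-JUN regions, against 23.5% of all, and at 6 of the 19 H3K4me3 regions, against 27.4%.

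In the deposited folds both stiff libraries were above both soft libraries at 12 of 39 p-JUN regions (30.8%, against 24.9% of all) and below at 5 (12.8%, against 12.1%). For H3K4me3 they were above at 6 of 19 (31.6%, against 39.7%) and below at 2 (10.5%, against 9.11%). Centring changed these splits to 9 above and 11 below for p-JUN, against 18.5% and 21.2% of all regions, and to 4 and 4 for H3K4me3, against 19.3% and 22.4%.

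**Figure D5:**
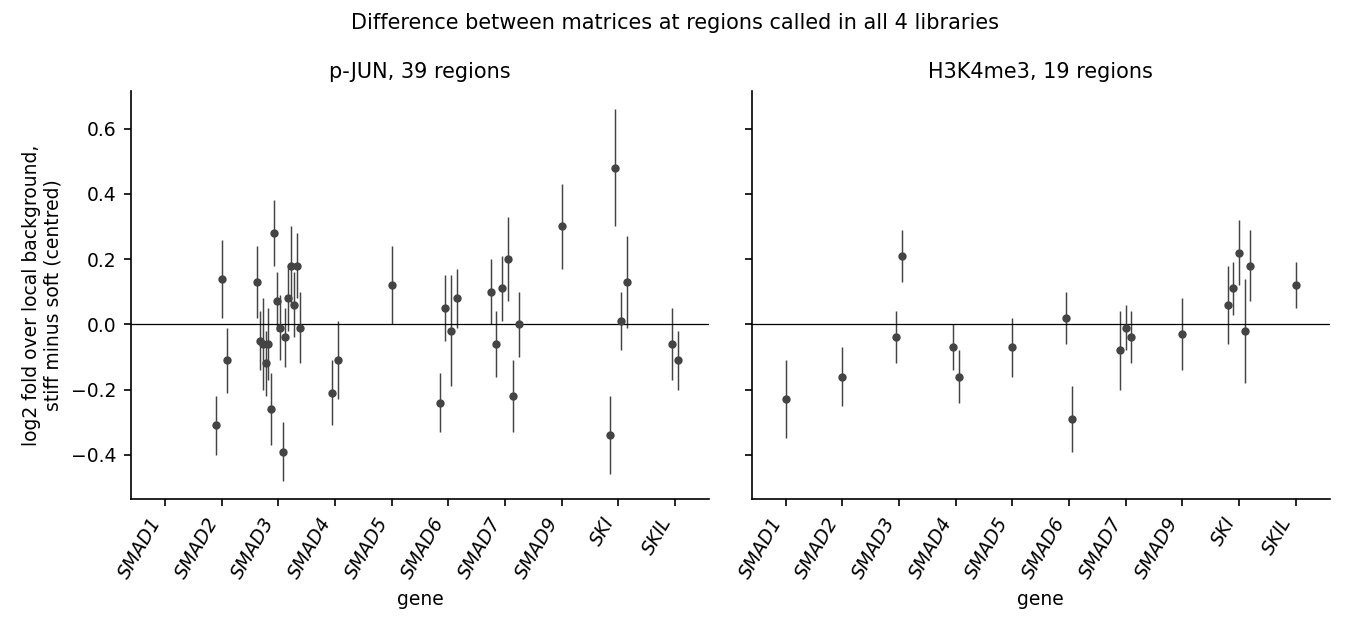
Centred log2 difference in fold, stiff minus soft, at each region called in all 4 libraries, for p-JUN (left, 39 regions) and H3K4me3 (right, 19 regions). Each point is a region, ordered within a gene by position, and bars are limma standard errors. The points spread to both sides of 0, from -0.39 at SMAD3 to 0.48 at SKI for p-JUN, and none passed the adjusted threshold.

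The marks also overlapped in the windows. All 18 H3K27ac regions were overlapped by a p-JUN peak in each of the 4 libraries, against 78.7% of all H3K27ac regions, and 11 of the 22 H3K4me3 regions were, against 48.7% of all. Conversely, 15 of the 60 p-JUN regions were overlapped by H3K27ac in both lists, against 17.2% of all. The mean folds of the 39 p-JUN regions called throughout had a median of 6.43, below the 8.83 of all such regions.

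Genes whose products bind, modify or degrade SMADs were examined in the same way. Of 26 such genes 25 had H3K4me3 at a start site in all 4 libraries, against 61.7% of all genes. The exception was FOXH1, a DNA-binding partner of SMAD2. The windows of the 26 genes held 222 p-JUN regions, of which 85 were at RUNX1 and 35 at NEDD4L. Stiff-only regions numbered 8 (3.60%, against 2.75% of all), 2 at ZFYVE9, which presents SMAD2 and SMAD3 to the receptor, and 1 each at RUNX1 and RUNX2, which encode transcription factors that bind SMADs, the coactivator gene CREBBP, TOB1 and the ubiquitin ligase genes SMURF2 and NEDD4L. Soft-only regions numbered 4 (1.80%, against 1.74%), 1 each at the ubiquitin ligase genes TRIM33 and NEDD4L, the phosphatase gene CTDSP1 and the corepressor gene TGIF1. At ZFYVE9 there were 5 and 5 p-JUN peaks on soft and 7 and 7 on stiff, and at TOB1 1 and 2 on soft and 3 and 3 on stiff. Both genes were named for their stiff-only regions, each of which adds a peak to both stiff numbers and to neither soft number. The higher stiff numbers therefore follow in part from that choice. RUNX2 had 15 and 12 on soft and 14 and 13 on stiff, and SMURF2 8 and 8 on soft and 8 and 9 on stiff, so a region of 1 matrix did not part their totals. No region of the list passed the adjusted limma threshold, and 14 of 142 had an unadjusted p under 0.05 (9.86%, against 9.48% of all).

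Of 6 target genes of SMADs, 4 had H3K4me3 at a start site in all 4 libraries, against 61.7% of all genes. These were ID1, ID2, ID3 and ATOH8, while ID4 and HAMP, the hepcidin gene of hepatocytes, had H3K4me3 there in 0 libraries. Among their 20 p-JUN regions 1 was stiff-only, at ATOH8, whose window had 3 and 3 p-JUN peaks on soft and 4 and 5 on stiff, and 0 were soft-only. The stiff-only region is itself counted in both stiff numbers of ATOH8. ID1, a main target of BMP signalling, had 5 and 6 on soft and 5 and 5 on stiff, which overlapped. None of the 11 regions tested had a limma p under 0.05, unadjusted (against 9.48% of all p-JUN regions) or adjusted (against 0%).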

How the data were processed

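Per the labels and the study's methods, reads were trimmed (Trim Galore), mapped to hg19 (Bowtie2) and marked for duplicates (Picard) by the authors, and peaks were then called with MACS2, whose version, options and control are not given in the sources used here. The deposited lists, 1 per library (merged for H3K27ac), give each peak a fold, the ratio of its signal to the local background as the authors' caller computed it. They also hold deposited −log10 p and −log10 q values, which were used here to rank and filter peaks (lowest −log10 q of 5.00 in the narrow lists and 1.31 in the broad H3K27me3 lists). Lists were not scaled to each other, and read totals were not analysed here, so the number of peaks may rise with depth. The number of cells per assay is 10000 in the labels but higher in the methods.

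Peaks on 24 chromosomes were joined into regions within a mark at an overlap of at least 1 bp, each library contributing its peak with the highest −log10 q. Genes, start sites of protein-coding transcripts and exons came from GENCODE release 44 mapped to hg19, the genome build of the files and of the sequences. A gene's main start site was that of its canonical transcript. Letters were searched on both strands, with AP-1 and TGACGTCA sharing no match. For numbers of peaks a two-sided exact permutation test over libraries was used. Log2 folds of regions called in all 4 libraries, centred on each library's median, were compared with limma 3.58.1 (R 4.3.3) over all regions of a mark with Benjamini-Hochberg adjustment at 0.05, the soft and stiff libraries being the only groups. These p-values measure the spread between libraries, which the study's methods call biological replicates without saying whether they were separate cultures. On simulated p-JUN data with 200 regions changed by 1.5 on the log2 scale among 40433, limma found 200 and called 6 others. All simulated regions had the same spread, and the planted changes were larger than the member differences of -0.39 to 0.48. The simulation therefore does not show how often differences of the observed size would be found. Fragments at a summit, an alternative scale, were derived from the deposited fold and −log10 p (python 3.11.15, pandas 2.3.3, scipy 1.17.1), and were whole numbers for at least 99.9% of peaks of each narrow list at a tolerance of 1e-04.

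Every member was described by a start-site region and by each region of 1 matrix. Where it had one, its p-JUN region with the highest mean fold among those called in all 4 libraries was also described. Not every region at a start site was described. Further member regions were described outside this rule, after their values were seen. Among the member regions described are all those with an unadjusted limma p under 0.05 on the fold scale. For listed genes, those with a region of 1 matrix were named, and a few others after their values were seen. Of the listed genes 2 are not reported here. The members, gene lists and tests were chosen with earlier results of these data known. Because stiff H3K27me3 covered 0 bases, a difference in bases replaced the log2 ratio. Alternatives were the gene body alone, a −log10 q of at least 10 (2 in broad lists), lists of equal length, a reciprocal overlap of 50%, no centring, fragments, a replicate block and leaving out each library.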

Additional observations from a re-analysis of the deposited data

How the results depend on the processing

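The p-JUN and H3K4me3 peak numbers were close to equal between the matrices, and their sign turned with small choices. The log2 ratio of p-JUN peak numbers, 0.01, was 0.00 with lists of equal length, 0.08 in the gene body alone and 0.03 at the stricter −log10 q, and ranged from -0.07 (without stiff replicate 2) to 0.10 (without stiff replicate 1). It was -0.03 without soft replicate 2. That of H3K4me3, -0.04, was 0.04 in the gene body alone and with lists of equal length, and 0.07 at the stricter −log10 q. It ranged from -0.14 (without soft replicate 1) to 0.07 (without soft replicate 2), and was 0.03 without stiff replicate 1. H3K27me3 coverage, -576.5 bases stiff minus soft, was 0 in the gene body alone, -202.5 with lists of equal length and at the stricter −log10 q, and from 0 (without soft replicate 1) to -1153 (without soft replicate 2). The H3K27ac ratio was below 0 under its 3 alternatives, from -0.09 with lists of equal length to -0.42. The whole lists held 18238 peaks on soft and 13322 on stiff, so a ratio below 0 is not by itself a difference at these genes. The count of 3 p-JUN regions of 1 matrix stayed within 2 to 3 under the alternatives that keep all libraries. It rose to between 5 and 8 when a library was left out, at 6 without soft replicate 1, 8 without soft replicate 2, 5 without stiff replicate 1 and 7 without stiff replicate 2, since fewer libraries are then needed for a call. The H3K4me3 count of 0 was 0 to 2, at 1 without soft replicate 1 and 2 without stiff replicate 1. The limma counts of 0 member regions stayed at 0 under every alternative run, with a lowest adjusted p of 0.0629 for p-JUN and 0.241 for H3K4me3, both from fragments.

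The libraries share replicate numbers, but nothing in the labels says that a number pairs them, and the deviations of same-numbered libraries from their group means correlated at 0.00 for p-JUN and -0.05 for H3K4me3 across regions. With a replicate block the log2 ratio of peak numbers was 0.01 for p-JUN and -0.03 for H3K4me3, the H3K27me3 difference was -576.5 bases, and limma called 0 member regions in either mark. It changed no call.

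With 2 libraries per matrix no permutation test here can reach 0.05, and H3K27ac has no replicate. Read depth is unknown, and the H3K4me3 summits held more fragments on stiff. A region without a peak in a list has no value there, so its level is unknown. The windows of SMAD3, SMAD4, SMAD5, SMAD9 and SKI overlap neighbouring genes, so a peak there need not belong to the named gene.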
